A study of Drosophila melanogaster with 6 samples.

Results

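The subject is the baseline transcriptome of control Drosophila melanogaster S2 cells, read from the 3 control libraries among the 6 libraries of a study of the splicing helicase Brr2. All 3 come from S2 cells labelled WT, under titles with shControl, that went through the RNA interference treatment, in which cells take up double-stranded RNA (dsRNA) from the medium. No label names the target of the control dsRNA, so the cells are dsRNA-treated controls rather than untreated cells. Per the labels' protocols, cells were grown at 25 °C in Schneider's medium with 10% serum, penicillin and streptomycin, and met 8 µg of dsRNA for 30 min before serum was added back. Libraries were made from total RNA after removal of ribosomal RNA. Nothing in the labels says that the 3 libraries came from separate cultures, so the spread between them may be technical. Genes were rows with a FlyBase gene identifier, the level of a gene was its share of all counts in the library, as counts per 1000000 (CPM), and a gene was called expressed at a mean of 5 CPM or more over the 3 libraries. By that rule 6628 of 17830 genes were expressed, which is 37.2%, and 3187 genes, 17.9%, had no count in any of the 3 libraries. There is a single group and no comparison of treatments, so no test was made and every value below is a level.

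S2 cells descend from late Drosophila embryos and are widely described as resembling hemocytes, the phagocytic blood cells of the fly. Embryonic hemocytes depend on the GATA factor Serpent, lay down basement membrane (the sheet of type IV collagen, laminin, perlecan and papilin that lines tissues), engulf dying cells through scavenger receptors and migrate under the control of the PDGF/VEGF-like receptor Pvr. The line has a male type of dosage compensation, in which the MSL complex, built on roX noncoding RNAs, raises transcription of the X chromosome.

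The 3 libraries held 137844749, 129282185 and 129066365 counts in control replicates 1, 2 and 3. Control replicate 3 stood apart. Ribosomal RNA took 0.157% of its counts, against 11.6% in replicate 1 and 10.4% in replicate 2. Protein-coding genes took 69.8% in replicate 3, 63.9% in replicate 1 and 61.5% in replicate 2, and the 2 genes of 7SL RNA, the RNA of the signal recognition particle, took 4.44%, 1.95% and 1.93%. Copies of transposons held 22.5%, 19.4% and 23.6% in the same order. Over expressed genes, Pearson's r of log2 CPM was 0.981 between replicates 1 and 2, 0.935 between 1 and 3, and 0.941 between 2 and 3. A mean over replicates 1 and 2 alone left 6567 genes expressed, and 6356 genes reached 5 CPM in each of the 3 libraries. A difference in rRNA share alone changes the CPM of every other gene of a library by 1 common factor. In the median expressed protein-coding gene the log2 ratio of replicate 3 to the mean of the others was 0.28 on the CPM scale and 0.12 after rRNA counts were left out of the totals.

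The genes taken as markers of the line were present in every library. No other line or tissue was compared, so they are not shown to be particular to S2 cells. Serpent (srp, on chromosome 3R, bases 15986152 to 16004085 of BDGP6 in the Ensembl annotation), the GATA factor of blood cells, stood at 99.9, 120.1 and 144 CPM in replicates 1, 2 and 3. Col4a1 and vkg, the genes of both type IV collagen chains, lie head to head on chromosome 2L. Col4a1 had 722, 1275 and 1149 CPM. The level of vkg was 799.7, 1418 and 1283 CPM. Both collagen genes were lowest in replicate 1 and highest in replicate 2. Act5C, a cytoplasmic actin, had 3081, 3248 and 3242 CPM and was nearly level. The noncoding RNA roX2 (lncRNA:roX2, chromosome X, bases 11579065 to 11580432) had 574, 418 and 485 CPM, a mean of 492 ± 78.4 (SD, n = 3). The other roX RNA, lncRNA:roX1, had 0.145, 0.309 and 0.132 CPM. In bulk RNA, fewer cells that express a gene and less of its RNA per cell cannot be told apart.

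Protein-coding genes spread from no count to 500 CPM or more. Of 13945 protein-coding genes, 6420 were expressed, 46.0%, and 1829, 13.1%, had no count. A further 4340 genes lay above 0 and under 1 CPM, 1356 between 1 and 5 CPM, 4065 between 5 and 50, 2163 between 50 and 500, and 192 at 500 CPM or more. The 192 most abundant genes, 1.38% of all protein-coding genes, held 43.8% of the protein-coding counts, and everything under 5 CPM held 0.127% plus 0.524%. The level of 5 CPM falls in a continuous range. CG1239 and CG15891, both at 5.0 CPM, and snoRNA:Or-aca5 at 5.01 CPM were just inside, and sli at 4.97, CG34183 at 4.98 and snoRNA:Psi28S-3091a at 4.99 CPM were just outside. Slit, the product of sli, is the repellent of axon guidance.

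**Figure D1:**
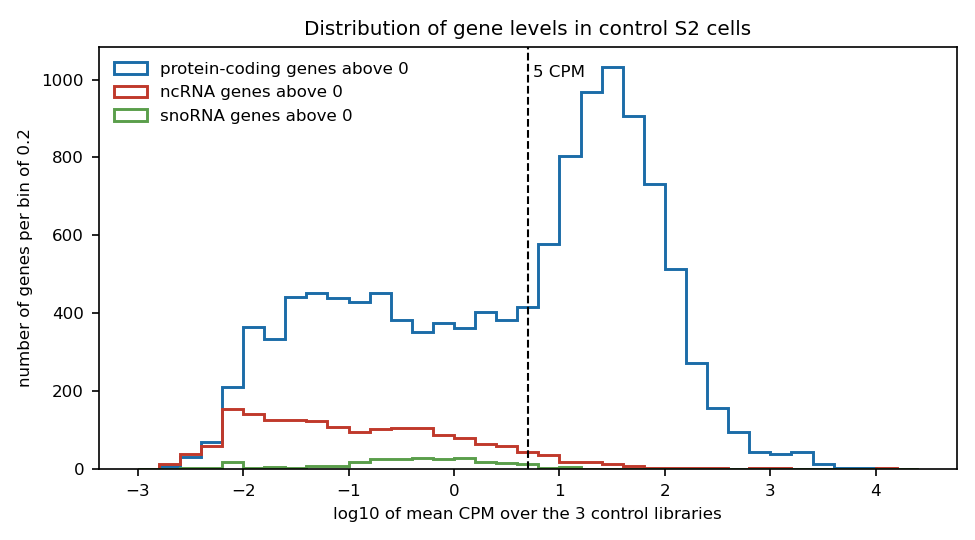
Number of genes in bins of 0.2 on the log10 scale of mean CPM over the 3 control libraries, for protein-coding, ncRNA and snoRNA genes with a count above 0; the dashed line is 5 CPM. Protein-coding genes form a peak to the right of the line and a broad shelf to its left, with 6420 of 13945 expressed. The ncRNA genes lie mostly to the left, with 133 of 2793 expressed.

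Gene structure differed along the level scale, as a description of the annotation. Genes at 0 had a median exon length of 977 bases, 24.9% had no intron, and 65.6% carried only a CG number as a symbol. Genes between 50 and 500 CPM had a median exon length of 3115 bases and a median longest intron of 795 bases, and 7.63% lacked an intron. At 500 CPM or more the median exon length was 1685 bases and 2.60% of genes had a CG number alone. Over all protein-coding genes these values were 1737 bases of exon, 15.4% without an intron and 46.6% with a CG number. A longer gene yields more reads per RNA molecule, which enters the CPM of each tier. Replicates also agreed more closely in higher tiers: the median coefficient of variation over the 3 libraries was 87.8% under 1 CPM, 26.8% between 1 and 5, 18.1% between 5 and 50, 15.7% between 50 and 500 and 13.4% above that.

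By chromosome, the X held 1108 expressed of 2174 protein-coding genes, or 51.0%. The shares were 46.2% on 2L, 44.5% on 2R, 44.6% on 3L and 44.9% on 3R. The small chromosome 4, most of which is heterochromatin-like, had 50 of 80 genes expressed and none at 0. None of 23 Y-linked protein-coding genes was expressed, and 22 of them had no count. Per kb of exon, the median expressed gene had 11.3 CPM on the X, 14.8 CPM on the 4 long autosomal arms as 1 set and 26.6 CPM on chromosome 4. The X was below the arms in each library, with 10.6, 10.8 and 12.5 CPM per kb on the X and 13.8, 13.5 and 16.7 on the arms in replicates 1, 2 and 3.

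The highest CPM values belonged to messages of protein synthesis, the mitochondrion, the cytoskeleton and the extracellular matrix. The translation elongation factor gene eEF1alpha1 had 13716, 12890.2 and 11067 CPM in replicates 1, 2 and 3. Elongation factor eEF2, which moves the ribosome along the message, averaged 5636 ± 165 CPM (SD, n = 3). LanA, the laminin alpha chain, had 4758, 5609 and 5237 CPM. FASN1, a fatty acid synthase, averaged 3287 ± 372 CPM, and pAbp, the poly(A) binding protein, 2720.0 ± 147 CPM. Among the 20 protein-coding genes with the highest CPM, mt:CoI and mt:CoIII, subunits of cytochrome c oxidase, averaged 6667 and 2959.6 CPM. The 20 also included Act5C and the ribosomal protein genes RpL5, RpS7, RpLP1, RpL31, RpL41, RpS23, RpL4, RpS5a, RpL13A and sta. Scaled by exon length, RpL41 stood first at 9195 CPM per kb, and RpS7 had 5678 and eEF1alpha1 5097 CPM per kb. RpS7 was above eEF1alpha1 per kb in each library. A mean of 287 ± 37.6 genes (SD, n = 3) held 50% of the protein-coding counts, and the top 10 held 9.08%.

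Among families of housekeeping complexes, the cytoplasmic ribosomal proteins, the proteasome and the vacuolar ATPase held expressed genes beside further copies that were not expressed. Over all protein-coding genes the expressed share was 46.0%. Of 93 genes with a cytoplasmic ribosomal protein symbol, 85 were expressed, and together they held 23.5% ± 2.37 of the protein-coding counts (SD, n = 3). The 8 others were RpS19b at 3.99 CPM, RpS5b at 0.635, RpS10a at 0.0429 and RpL37b at 0.00774 CPM, and RpL22-like, RpL10Aa, RpS28-like and RpS28a with no count. All 8 are second copies of a ribosomal protein that has another gene in the genome. The proteasome showed the same division, with 33 of 47 subunit genes expressed (70.2%). The 14 others, such as Rpt3R at 1.23 CPM and Prosalpha6T at 0.307 CPM, carry an R or T suffix that marks them as further copies. Among 32 genes of the vacuolar ATPase, the proton pump of endosomes and lysosomes, 16 were expressed. That share was close to the 46.0% of all protein-coding genes. Vha16-1, a subunit of the membrane ring, had 1303, 1026 and 1128 CPM, while Vha16-2, Vha16-3 and Vha16-4 averaged 0.0266, 0.0207 and 0.0280 CPM and Vha16-5 had no count. Mitochondrial ribosomal proteins had 68 of 73 genes expressed, and the aminoacyl-tRNA synthetases 30 of 32; the genes of both families that were not expressed lay between 1 and 5 CPM.

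The cytoskeleton also divided by paralog. Of 16 actin and tubulin genes, 7 were expressed (43.8%), close to the 46.0% of all protein-coding genes. Act42A, the second cytoplasmic actin, had 1275, 1472 and 2897 CPM, so replicate 3 lay well above the others, while Act5C was level. Beside them, alphaTub84B averaged 2369 ± 221, betaTub56D 1983 ± 219, betaTub60D 294 ± 21.0, alphaTub84D 155 ± 45.8 and gammaTub23C 40.0 ± 5.85 CPM (SD, n = 3). Per kb of exon, Act5C, betaTub56D, Act42A and alphaTub84B averaged 1071, 1061, 1157 and 1352 CPM. The muscle actins Act57B, Act79B, Act87E and Act88F averaged 0, 0.0258, 0.131 and 0.0476 CPM. The tubulins of the ovary and testis were also under 1 CPM, with alphaTub67C at 0.179, gammaTub37C at 0.845 and betaTub85D at 0.0785 CPM. betaTub97EF averaged 0.392 CPM and alphaTub85E 0.180 CPM.

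Outside protein-coding genes and rRNA, few annotated genes were expressed, beside 37.2% of all genes and 46.0% of protein-coding genes. These were 133 of 2793 ncRNA genes (4.76%), 21 of 269 snoRNA genes (7.81%) and 4 of 312 tRNA genes (1.28%). Of snRNA genes 4 of 31 (12.9%) and of pseudogenes 38 of 330 (11.5%) were expressed. How short RNAs passed the library preparation was not tested, so these counts describe the libraries. The RNA 7SK, which holds the elongation factor P-TEFb inactive, had 16829, 12363 and 13829.5 CPM for snRNA:7SK. Of the 7SL RNA genes, 7SLRNA:CR32864 had 9732, 9673 and 22183 CPM and 7SLRNA:CR42652 9728, 9665 and 22189 CPM; the values of these near-identical copies are close to equal, and reads cannot be assigned to one of them with certainty. RNaseMRP:RNA, which acts in rRNA maturation, averaged 3785 ± 541 CPM, and RNaseP:RNA, which trims tRNA precursors, 1542 ± 293 CPM (SD, n = 3). The stress-associated nuclear RNA lncRNA:Hsromega had 1634, 1168 and 881 CPM. Beside lncRNA:roX2, other noncoding RNAs among the 10 with the highest CPM were lncRNA:CR42862 at 859, hpRNA:CR18854, a hairpin RNA that feeds endogenous siRNAs, at 739, and snoRNA:Tudor-SN-a at 344 CPM. The 111 copies of the replication-dependent histone genes together took 0.715%, 0.540% and 1.11% of counts in replicates 1, 2 and 3. All 111 rows passed 5 CPM, but reads of single copies cannot be told apart. Whether each copy is expressed is therefore not known, and single copies are not given.

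Hemocyte genes were expressed in part. Of 16 genes of embryonic hemocytes and plasmatocytes, the macrophage-like blood cells, 10 were expressed (62.5%, beside 46.0% of all protein-coding genes), with a list median of 46.1 CPM beside 2.63 CPM. Pvr, the PDGF/VEGF receptor, had 1396, 1496 and 1821 CPM. The engulfment receptor crq had 357, 282 and 232 CPM, and drpr, the receptor Draper, 166, 171 and 173 CPM. zfh1, a zinc finger and homeodomain factor of blood and mesoderm, averaged 252 ± 50.8 CPM, ush, the GATA cofactor, 70.7 ± 12.5, and the complement-like Tep4 149 ± 5.13 CPM (SD, n = 3). The Nimrod receptor eater was at 30.9, 17.3 and 16.4 CPM, and the matrix peroxidase Pxn at 9.37, 12.0 and 9.0 CPM. The 6 genes that were not expressed include standard plasmatocyte labels of the larva. Hml, hemolectin, had 0.392, 0.588 and 0.643 CPM. NimC1, the Nimrod phagocytosis receptor, had 0.116, 0.155 and 0.0310 CPM. He, Sr-CI and gcm, a glia and hemocyte determinant, averaged 0.372, 0.249 and 0.0650 CPM, and gcm2 had no count. The list thus divided within its own classes: of the transcription factors srp, ush and zfh1 were expressed and gcm and gcm2 were not, and of the phagocytic receptors crq, drpr and eater were expressed and NimC1 and Sr-CI were not.

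None of the listed genes of the other blood cell types was expressed, beside 46.0% of all protein-coding genes. For crystal cells, which store the melanising enzyme prophenoloxidase, 0 of 5 genes were expressed, with lz at 0.534, PPO1 at 0.409, peb at 0.337, klu at 0.0819 and PPO2 at 0.0632 CPM. For lamellocytes, the flat cells that encapsulate parasites, 0 of 5 were expressed, and PPO3 came nearest with 4.82, 2.95 and 3.91 CPM. atilla, a lamellocyte surface antigen, had no count.

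Basement membrane genes were expressed nearly whole. Of 11, 10 were expressed (90.9%, beside 46.0% of all protein-coding genes), with a median of 455 CPM. Beside LanA and the collagens, the laminin beta chain gene LanB1 had 1509, 1737 and 1762 CPM, and the gamma chain LanB2 360.4, 516 and 488 CPM. trol, which encodes perlecan, had 919.9, 1664 and 1088 CPM, and Ppn, papilin, 321, 422 and 339.8 CPM. The collagen lysyl hydroxylase Plod averaged 117 ± 8.07, the collagen-binding SPARC 49.8 ± 12.1 and the other laminin alpha chain, wb, 50.2 ± 6.81 CPM (SD, n = 3). Nidogen was the exception, with 0, 0.0541 and 0.0775 CPM for Ndg. Per kb of exon, LanA averaged 445, LanB1 266 and LanB2 76.9 CPM, whose products join in 1 trimer, and vkg and Col4a1 averaged 179 and 170.1 CPM per kb. The list was lowest in replicate 1 for 9 of 10 expressed genes on the CPM scale and for 4 of 10 with totals scaled by TMM, a trimmed mean of ratios between libraries.

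Of 11 integrin genes, which include matrix receptors and their linkers, 5 were expressed (45.5%), close to the 46.0% of all protein-coding genes. The beta integrin subunit mys had 434, 439 and 381 CPM. The cytoplasmic linkers of integrins were expressed too: rhea, talin, averaged 354 ± 57.0, parvin 58.9 ± 1.82, Ilk 44.1 ± 3.29 and ics 28.1 ± 3.58 CPM (SD, n = 3). The alpha subunits mew, if and scb averaged 3.69, 3.46 and 3.13 CPM, and ItgaPS4 and ItgaPS5 0.683 and 0.576 CPM, all under the level of 5. The second beta subunit, Itgbn, averaged 4.87 CPM and passed 5 CPM when replicate 3 was left out. Of 15 cell-cell adhesion genes 7 were expressed (46.7%), close to the 46.0% of all protein-coding genes. The count was 4 at 10 CPM and 3 at 5 TPM, a unit scaled by exon length. kst, a spectrin of the cell cortex, averaged 181 ± 19.5, kirre, an immunoglobulin protein of myoblast fusion, 139 ± 22.1, and Nrx-IV, of septate junctions, 81.5 ± 0.828 CPM. shg, the E-cadherin, had 6.15, 6.06 and 11.1 CPM. The N-cadherin genes were low, at 0.0974 CPM for CadN and 0 for CadN2, and the giant cadherins ft and ds averaged 4.17 and 0.264 CPM.

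**Figure D2:**
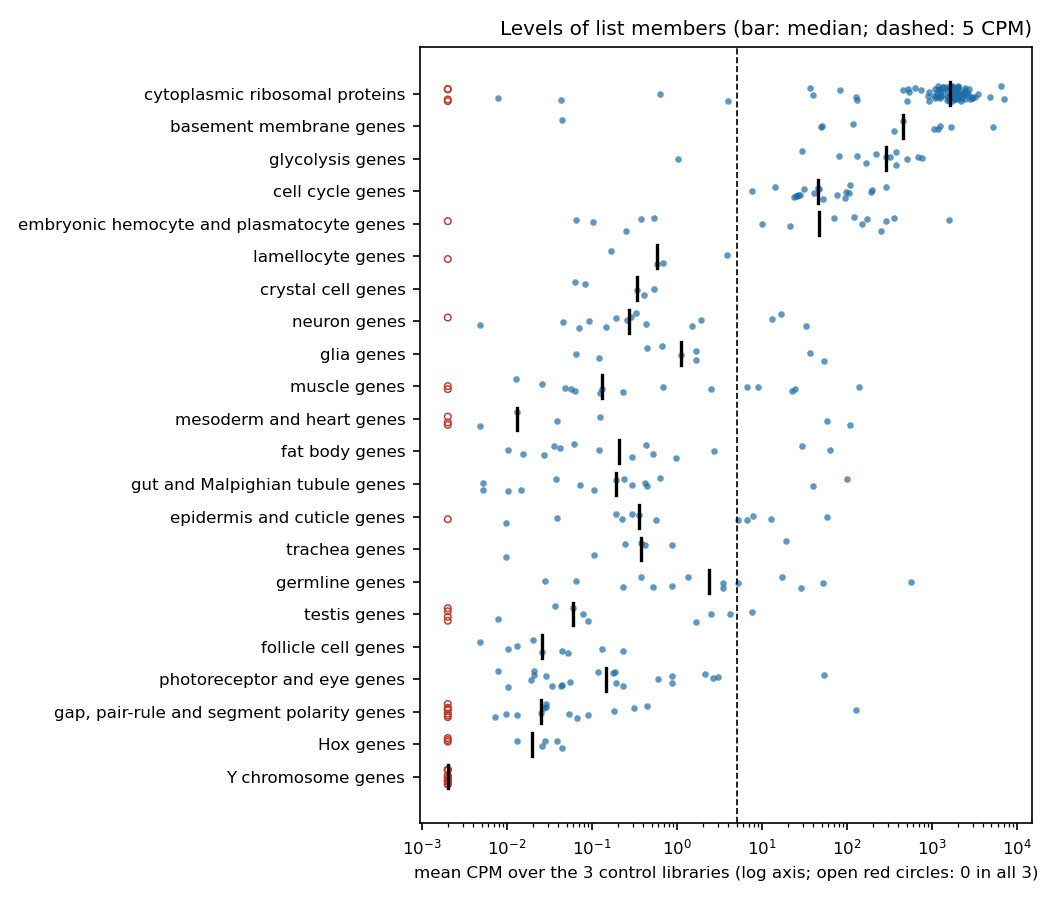
Mean CPM over the 3 control libraries (log axis) of every member of 22 gene lists, 1 row per list; each point is a gene, open red circles at the left are genes with 0 counts in all 3 libraries, black bars are list medians and the dashed line is 5 CPM. The upper 5 rows have medians above the line, between 46.1 and 1638 CPM, and the 17 lower rows, which hold lineage genes of other cell types, have medians under it with scattered single genes to the right.

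Nervous system lists were expressed in small part. For neurons 3 of 16 genes were expressed (18.8%, beside 46.0% of all protein-coding genes) and the median was 0.273 CPM. The exceptions were elav, an RNA-binding protein used as a pan-neuronal label, at 33.1, 33.6 and 32.0 CPM, brp, an active zone protein, at 17.8, 16.6 and 15.5 CPM, and the microtubule protein futsch at 6.28, 15.8 and 17.6 CPM. Scaled by exon length, elav, brp and futsch averaged 3.07, 1.24 and 0.566 CPM per kb, so with the threshold of 5 set on TPM, a length-scaled unit, 1 of the 16 was left. Synaptic vesicle and transmitter genes were near 0, with nSyb at 0.0448, Gad1 at 0.00484 and VGlut at 0 CPM. Glia had 2 of 9 (22.2%), nrv2, a sodium pump beta subunit, at 53.4 CPM and moody, a receptor of the blood-brain barrier, at 36.4 CPM. The glial factor repo averaged 0.119 CPM.

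Muscle had 5 of 17 genes expressed (29.4%) and mesoderm and heart 2 of 9 (22.2%), beside 46.0% of all protein-coding genes. nau, the fly MyoD, had 19.7, 21.6 and 31.7 CPM and Mef2 17.9, 21.3 and 27.2 CPM. twi, the mesoderm determinant Twist, had 43.1, 61.7 and 68.0 CPM, and htl, the FGF receptor of mesoderm, 83.2, 107 and 129 CPM. On the CPM scale all 4 genes were highest in replicate 3, as were 4505 of the 6420 expressed protein-coding genes, while twi was highest in replicate 2 with TMM totals, with median-of-ratios size factors and with totals that exclude rRNA. Of the sarcomere genes, Mhc averaged 0.679, up 0.124, Tm2 0.0626 and TpnC73F 0 CPM. The very long sarcomere genes sls and bt, of titin-like proteins, passed the level with 8.87 and 6.60 CPM, which is 0.150 and 0.235 CPM per kb. The other expressed muscle gene was kirre, the highest of that list at 139 CPM, which is also counted among the cell-cell adhesion genes. The mesoderm and heart factors tin, sna, Hand, bap, bin and eve lay between 0 and 0.124 CPM.

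Lists of other organs had 0 to 5 expressed genes each. Their shares ran from 0% for follicle cells to 38.5% for epidermis, beside 46.0% of all protein-coding genes. Of 15 gut and Malpighian tubule genes, ct, the homeodomain protein Cut, averaged 101 ± 17.6 CPM and Irk3, a potassium channel, 40.1 ± 3.99 CPM (SD, n = 3), and none of the 13 others passed 0.628 CPM. Of 14 fat body genes, Ilp6, an insulin-like peptide, averaged 62.5 CPM and Mtp, a lipid transfer protein, 29.5 CPM; larval serum proteins and yolk proteins were under 1 CPM, with Lsp1gamma highest at 0.964 CPM. Of 13 epidermis genes 5 were expressed, led by ebony at 57.8 CPM, while the epidermal regulator grh averaged 0.571 and the chitin synthase kkv 0 CPM. Of 7 trachea genes, bnl, the FGF ligand, stood alone with 21.8, 25.6 and 9.55 CPM. Eye genes had 1 of 22, norpA, the phospholipase C of phototransduction, at 42.0, 58.7 and 60.4 CPM; the main rhodopsin, ninaE, averaged 0.193 CPM. No follicle cell gene of 9 was expressed, and Cp18, a chorion protein, was highest at 0.231 CPM.

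The germline list had 5 of 14 genes expressed (35.7%, beside 46.0% of all protein-coding genes). It was led by tud, the scaffold protein Tudor, with 574, 632 and 486 CPM. krimp, a Tudor-domain protein of the piRNA pathway, averaged 52.0 ± 8.51, zpg, a gap junction protein, 29.0 ± 8.03 and the Piwi-class protein aub 17.2 ± 8.15 CPM (SD, n = 3). aub was higher in replicate 1, at 26.6 CPM, than in replicates 2 and 3, at 12.2 and 12.7 CPM. The other expressed gene was ovo, at 5.26 CPM. Germ cell determinants were under 5 CPM, with vas at 0.377, nos at 0.0652, pgc at 0.515, bam at 0.232 and osk at 3.43 CPM. Other genes share 84.1% of the exon bases of osk. AGO3 averaged 3.50 CPM. The testis list had 1 of 13 expressed, twe, a Cdc25 phosphatase, at 7.60 CPM, and 4 of its genes had no count, among them the sperm protamines ProtA and ProtB.

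Patterning genes were nearly all silent, beside 46.0% of all protein-coding genes expressed. None of the 8 Hox genes passed 0.0438 CPM, the mean of Ubx, and Dfd, Scr and Abd-B had no count. abd-A, lab, Antp and pb averaged 0.0387, 0.0277, 0.0258 and 0.0129 CPM. A count of 3 equals 0.0218 to 0.0232 CPM in these libraries, so these means rest on few reads. Of 21 segmentation genes, hairy alone was expressed, at 126 CPM. Next were gt, run and bcd, at 0.447, 0.308 and 0.183 CPM, and 7 genes, among them eve, ftz and en, had no count.

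The GATA and nuclear receptor families held expressed members beside others that were not expressed. Of the 5 GATA factors, pnr, Pannier, had 143, 157 and 177 CPM beside srp, and GATAd had 40.3, 34.9 and 42.7 CPM. GATAe, the gut factor, averaged 0.419 CPM and grn 0.0336 CPM. Of 21 nuclear receptors 9 were expressed (42.9%), close to the 46.0% of all protein-coding genes. Hnf4, a lipid-sensing receptor, averaged 99.5 ± 3.99, EcR, the ecdysone receptor, 62.8 ± 2.99, its partner usp 33.1 ± 2.44 and the ecdysone target Eip75B 82.1 ± 10.3 CPM (SD, n = 3). ftz-f1, Hr39, Hr78, ERR and Hr96 lay between 11.1 and 50.6 CPM, and 52.2% of the exon bases of ERR are shared with an antisense RNA gene. Hr3 and Hr38, other members of the ecdysone response, averaged 0.193 and 0.267 CPM, and Hr83 and tll had no count.

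The dosage compensation machinery was expressed whole but for roX1. msl-2, the male-specific subunit, had 51.4, 49.5 and 53.5 CPM. mof, the acetyltransferase, averaged 43.9 ± 4.13, msl-1 40.2 ± 8.11, the helicase gene mle 27.9 ± 6.07 and msl-3 21.8 ± 4.59 CPM (SD, n = 3). Sxl, whose female splice form blocks msl-2 translation, had 77.4, 88.7 and 76.5 CPM; gene counts do not tell its splice forms apart. fru averaged 114 ± 29.8 and tra2 22.2 ± 6.02 CPM, whereas tra and dsx averaged 3.31 and 2.53 CPM. All 11 listed Y chromosome genes, which include the sperm dynein genes kl-2, kl-3 and kl-5, had no count in any library.

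Of 10 circadian clock genes 6 were expressed (60.0%, beside 46.0% of all protein-coding genes), and tim, per, Clk and cry were not. cwo, a repressor of clock targets, had 129.6, 140.5 and 127 CPM, Pdp1 99.7, 104 and 77.3 CPM, and vri 9.99, 7.45 and 6.99 CPM. The kinases sgg (shaggy) and dco (doubletime) averaged 92.0 ± 8.31 and 52.8 ± 6.73 CPM, and cyc, the partner of Clock, 13.4 ± 1.65 CPM (SD, n = 3). The feedback genes tim and per averaged 1.30 and 0.594 CPM, Clk 0.510 and the light receptor cry 0.0272 CPM.

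Of 17 signalling pathway transcription factors 16 were expressed (94.1%), of 26 receptors 16 (61.5%) and of 26 ligands 14 (53.8%), beside 46.0% of all protein-coding genes. Among the factors, kay, the fly Fos, averaged 368 ± 35.9 and pnt, the ETS factor of receptor tyrosine kinases, 314 ± 41.8 CPM (SD, n = 3). Stat92E, of the JAK-STAT pathway, had 242, 233 and 422 CPM and was highest in replicate 3. The exception was ci, the Hedgehog factor, at 1.00, 1.18 and 0.690 CPM, although the Hedgehog receptor ptc averaged 35.1 ± 4.26 and the transducer smo 50.2 ± 3.86 CPM. hh itself averaged 0.0666 CPM.

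In the PDGF/VEGF pathway both sides were present: beside Pvr, its ligands Pvf2, Pvf3 and Pvf1 had 341, 368 and 426 CPM, 159, 171 and 197 CPM, and 114, 48.6 and 54.7 CPM in replicates 1, 2 and 3. In the EGF pathway the ligand and its inhibitor were present without the receptor. Egfr had 0, 0.0232 and 0.124 CPM. spi, the ligand Spitz, had 271, 250.1 and 266 CPM, and aos, the secreted inhibitor Argos, 451, 632 and 596 CPM. The ligand vn averaged 7.51 ± 0.599 and Krn 4.80 ± 0.10 CPM. The FGF receptors divided, with htl expressed and btl, the tracheal one, at 0.373 CPM, while the htl ligands pyr and ths averaged 6.53 and 0.0413 CPM.

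For Notch, the receptor N averaged 123 ± 20.3 CPM and the ligand Ser 59.3 ± 6.98 CPM (SD, n = 3), while the other ligand, Dl, had 0.0943, 0.131 and 0.0852 CPM. For Wnt, the frizzled receptors fz and fz2 averaged 1.31 and 2.55 CPM, wg 0.0250 CPM and the co-receptor arr 42.0 ± 5.81 CPM. The TNF ligand egr had 206, 141 and 175 CPM; of its receptors, wgn averaged 57.4 ± 7.75 and grnd 0.0613 CPM. The BMP ligand gbb averaged 118 ± 4.52 CPM and dpp 0.0587 CPM, with the receptors tkv, sax and put at 25.8, 64.5 and 99.6 CPM. The JAK-STAT receptor dome averaged 42.8 ± 5.99 CPM, and its ligands upd1, upd2 and upd3 0.0439, 0.148 and 1.67 CPM. The insulin receptor InR averaged 155 ± 13.2 CPM, whereas Ilp2 had no count.

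**Figure D3:**
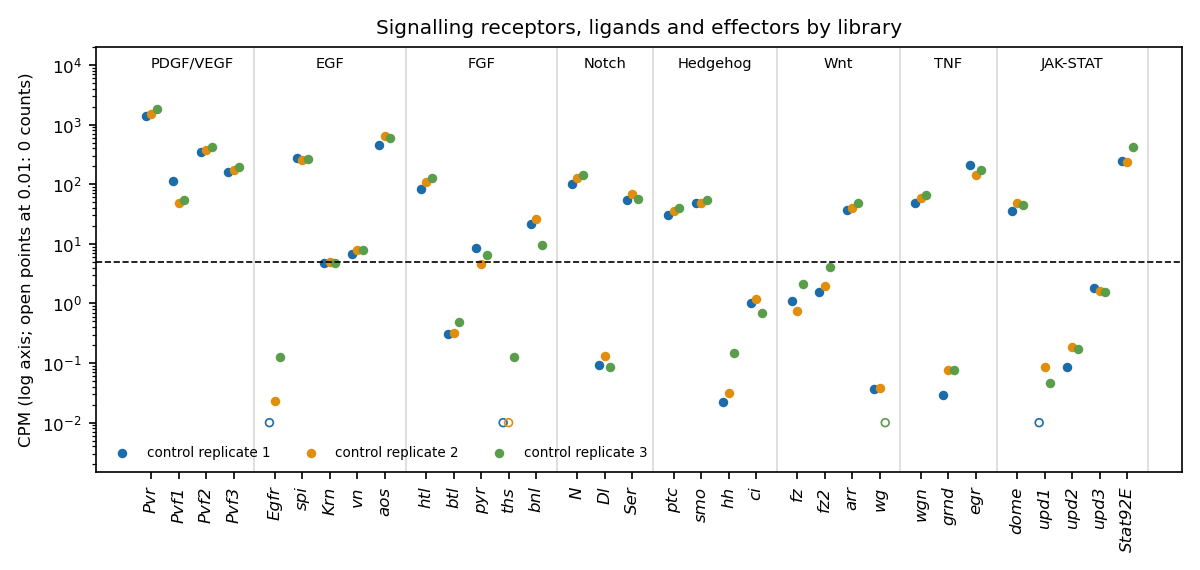
CPM (log axis) of receptors, ligands and effectors of 8 signalling pathways in control replicates 1, 2 and 3, 1 coloured point per library; open points drawn at 0.01 are 0 counts and the dashed line is 5 CPM. Pvr and its 3 ligands lie above the line in every library, whereas Egfr, Dl, hh, wg and grnd lie under 0.15 CPM beside expressed partners.

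Immune genes were expressed in part. The Toll receptor Tl had 39.6, 24.4 and 19.8 CPM, its ligand spz 279.7, 139 and 168 CPM, and PGRP-LC, the Imd pathway receptor, 16.3, 15.4 and 15.8 CPM, while PGRP-LE, a second sensor of that pathway, averaged 0.599 CPM. The NF-kappaB factors Rel, dl and Dif averaged 142 ± 28.0, 55.8 ± 3.12 and 19.5 ± 8.07 CPM (SD, n = 3). Tl, spz and Rel were highest in replicate 1. Of 14 antimicrobial peptide genes 2 were expressed (14.3%, beside 46.0% of all protein-coding genes). These were CecC with 9.51, 9.07 and 17.0 CPM and CecA1 with 10.9, 5.19 and 9.23 CPM. The count was 1 at 10 CPM and 4 at 5 TPM. AttB and CecB averaged 2.99 and 2.72 CPM, and DptA and Mtk 0.0458 and 0.00967 CPM.

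Large families of sensory, cuticle and secreted genes were almost wholly silent, beside 46.0% of all protein-coding genes expressed. None of 60 odorant receptors, 51 odorant-binding proteins, 25 Tweedle and 25 Osiris genes, 16 Jonah proteases, 11 trypsins or 47 seminal fluid genes was expressed, with the highest single gene Obp99a at 4.32 CPM; Or1a averaged 4.02 CPM. Of 70 RR cuticle protein genes 1 was expressed, Cpr97Ea at 9.39 CPM. The chemoreceptors had exceptions. Of 60 gustatory receptor genes 4 were expressed: Gr43a, the fructose receptor, at 12.1, 16.0 and 12.7 CPM, Gr94a at 11.1, Gr39a at 7.46 and Gr61a at 5.67 CPM. Of 60 ionotropic receptor genes 5 were expressed. Ir7g, Ir7f and Ir7e are neighbours on the X chromosome (bases 7884660 to 7886976, 7881939 to 7884026 and 7879800 to 7881679) and had 31.2, 38.8 and 24.5 CPM, 27.3, 38.9 and 22.5 CPM, and 14.6, 22.0 and 11.5 CPM. All 3 were highest in replicate 2 and lowest in replicate 3. The other genes of that family nearest to them, Ir7b, Ir7c and Ir7d, averaged 0.0103, 0.0181 and 0 CPM. Ir76a averaged 16.7 ± 1.42 and Ir62a 5.78 ± 1.37 CPM (SD, n = 3). Of 29 pickpocket channels, ppk28, the water taste channel, averaged 9.42 and ppk10 5.08 CPM; all exon bases of ppk28 lie within an antisense RNA gene's exons, so its counts are uncertain without strand. Of 83 cytochrome P450 genes 14 were expressed, led by Cyp310a1 at 51.1, Cyp6v1 at 45.3 and Cyp9f3 at 39.3 CPM.

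Proliferation and energy genes were expressed throughout and also separated the libraries. All 20 cell cycle genes were expressed, beside 46.0% of all protein-coding genes. stg, the Cdc25 phosphatase String, had 174, 229.9 and 456 CPM in replicates 1, 2 and 3. CycB had 151, 172 and 246 CPM, polo 165, 161 and 259.9 CPM, and Cdk1 19.7, 19.2 and 44.3 CPM. Of the 20 genes 19 were highest in replicate 3 on the CPM scale, and 16 to 19 under the 5 ways of scaling the libraries. Of all 6420 expressed protein-coding genes, 4505 were highest in replicate 3 on the CPM scale and 2630 with TMM totals. The proteasome went the same way, with 33 of 33 expressed subunits highest in replicate 3 on the CPM scale (32 with TMM totals) and summed levels of 2885, 2883 and 4607 CPM, as did 66 of 68 expressed mitochondrial ribosomal proteins (53 with TMM totals).

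Glycolysis went the opposite way. Of its 13 genes 12 were expressed (92.3%, beside 46.0% of all protein-coding genes). All 12 were lowest in replicate 3 under each of the 5 scalings. Ldh, lactate dehydrogenase, had 603, 767 and 154 CPM, Pgi 285, 253 and 113 CPM, and Pfk, phosphofructokinase, 175, 236 and 89.6 CPM. Eno, enolase, had 798, 874 and 621 CPM. Hex-C, a second hexokinase, averaged 1.01 CPM and Hex-A 29.4 CPM. The median log2 ratio of replicate 3 to the mean of the others was -0.55 for glycolysis, 0.60 for the cell cycle, 0.66 for the proteasome and 0.67 for mitochondrial ribosomal proteins, beside 0.28 for all expressed protein-coding genes on the same CPM scale. Other genes at least 2-fold below both other libraries in replicate 3 were Sirup, a mitochondrial assembly factor, with 1374, 1298 and 321 CPM, ImpL2, a secreted insulin antagonist, with 941, 1067 and 376 CPM, and fra, the netrin receptor, with 379, 372 and 105 CPM. Among those at least 2-fold above was Nap1, a histone chaperone, with 139, 128 and 369 CPM. With rRNA left out of the totals, 95 of 6420 expressed protein-coding genes were at least 2-fold below both others in replicate 3 and 36 at least 2-fold above. The same counts were 7 below and 40 above in replicate 1, and 8 and 4 in replicate 2. On the CPM scale replicate 3 had 77 below and 93 above, so the balance of its sides turns with the scaling. Whether the lower rRNA share of replicate 3 has a part in these differences was not tested.

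Replicate 1 was set apart by heat shock genes, a group chosen after its values were seen. The 6 copies of Hsp70, the inducible chaperone, summed to 3564, 886 and 339 CPM in replicates 1, 2 and 3. Hsp68 had 576, 121 and 32.3 CPM, Hsp26, a small chaperone, 722, 198 and 45.9 CPM, and the co-chaperone gene DnaJ-1 247, 108 and 83.9 CPM. All 11 inducible Hsp genes plotted (Hsp22, Hsp23, Hsp26, Hsp27, Hsp68 and the Hsp70 copies) were highest in replicate 1 and lowest in replicate 3 under each of the 5 scalings. Copies of Hsp70 may share reads, so these 6 rows may not be separate observations. Hsp70Aa had 522, 151 and 65.5 CPM and Hsp70Ab 531, 154 and 67.2 CPM. The exons of Hsp22 overlap another gene, CG4456, in full. Among chaperones made also in unstressed cells, Hsp83 had 1614, 1397 and 1787 CPM and Hsc70-4 2155, 2173 and 2823 CPM. On the CPM scale both were highest in replicate 3, as were 4505 of the 6420 expressed protein-coding genes. With TMM totals and with totals that exclude rRNA, Hsp83 was highest in replicate 1 instead. Hsc70-3, the chaperone of the endoplasmic reticulum, had 740.2, 673 and 602 CPM, which is the order of the inducible genes over a narrower range.

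**Figure D4:**
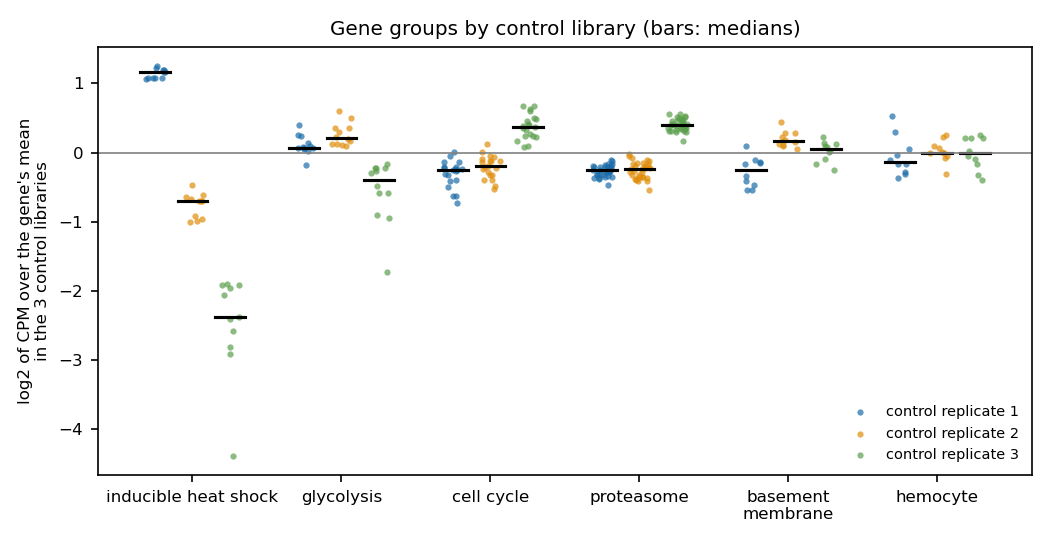
Log2 of each gene's CPM over its own mean in the 3 control libraries, by gene group and library; points are genes, black bars are medians, and the line at 0 is the gene's mean. All 11 inducible heat shock genes, of which 6 are Hsp70 copies that may share reads, are highest in replicate 1. All 12 glycolysis genes are lowest in replicate 3. In that replicate 19 of 20 cell cycle and 33 of 33 proteasome genes are highest, whereas the medians of the hemocyte genes lie near 0. On the same CPM scale 4505 of all 6420 expressed protein-coding genes are highest in replicate 3.

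The 5 expressed protein-coding genes with the largest coefficient of variation were CG34135, CG11768, CG31917, stv and Hsp68. stv, a partner of Hsp70, followed the heat shock genes with 20.6, 3.28 and 0.721 CPM. The first 3 share their exons with another gene. CG31917 had 3.70, 4.18 and 50.6 CPM and Tfb5, a subunit of the transcription factor TFIIH annotated with the same span, 22.8, 21.7 and 6.18 CPM. Their sum was 26.5, 25.9 and 56.8 CPM, highest in replicate 3. Counts of genes that share all exon bases are uncertain, and how reads were divided between them was not tested.

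The mitochondrial genome showed a break along its map in replicate 3. The 6 genes mt:ND2, mt:CoI, mt:CoII, mt:ATPase8, mt:ATPase6 and mt:CoIII, consecutive on the plus strand, stood in replicate 3 at 1.28 to 1.81 times the mean of the others. mt:CoI, for example, had 5369.5, 6367 and 8264 CPM. The 9 genes that follow on the map, mt:ND3, mt:ND5, mt:ND4, mt:ND4L, mt:ND6, mt:Cyt-b, mt:ND1 and the rRNA genes mt:lrRNA and mt:srRNA, were 33.7- to 171-fold lower in replicate 3 than the mean of replicates 1 and 2. mt:Cyt-b, the cytochrome b gene, had 1545, 1550.1 and 10.1 CPM, mt:ND4 774, 1045 and 6.21 CPM, and mt:lrRNA 2376, 2142 and 19.5 CPM. The block holds genes of both strands and genes of proteins as well as rRNA. Nuclear rRNA is lower in the same library, and the part of rRNA depletion in the mitochondrial break was not tested. Means over the 3 libraries for these 9 genes therefore join values of 2 kinds: in replicates 1 and 2 all 7 protein-coding genes of the block were above 5 CPM, and in replicate 3 4 of them were.

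**Figure D5:**
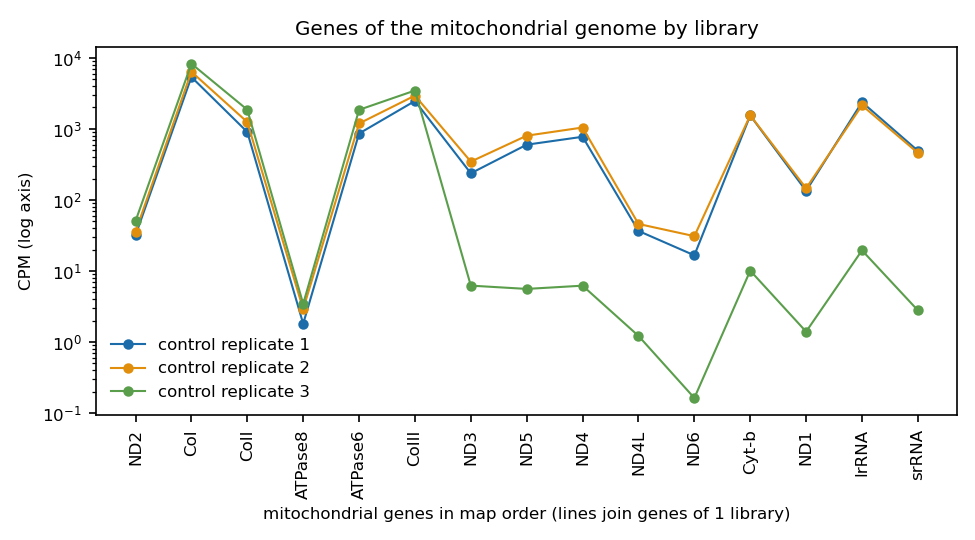
CPM (log axis) of 15 genes of the mitochondrial genome in map order in control replicates 1, 2 and 3; lines join the genes of 1 library. The 3 lines run together over the first 6 genes, and from mt:ND3 on replicate 3 lies far below the others, which stay close to each other.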

How the data were processed

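Total RNA of S2 cells was depleted of rRNA with a Ribo-Zero Gold kit and made into libraries, per the labels' protocols. Per the submitters' processing notes, Trimmomatic, TopHat2 and the build BDGP6 were used, with no versions. How reads were counted, whether by strand, and what became of multi-mapped ones is not given there. The values were deposited as estimated counts per gene, not normalized; they need not be separate reads, since on average 948 rows of a library held the value 1 and 335 the value 2. CPM was computed over all 23882 rows of a control column, of which 17830 are genes. Biotype, exon length and position came from the Ensembl release 115 annotation (17751 genes matched by identifier, 30 by symbol, 49 not). The 3 control columns were described with no test. The chi-square per degree of freedom between libraries was 216 to 1442, so none was deposited in duplicate.

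Genes named are the most abundant ones, the markers, the highest and lowest of each list, all GATA, Hox, actin, tubulin and clock genes, those beside 5 CPM and the most variable; others named within lists, the heat shock genes and the mitochondrial map order were chosen after their values were seen. Members and lists were chosen with earlier results of these data known. Cyp1, a cyclophilin, was left out of the P450 family. The call of expressed genes was run on simulated counts in which some genes were set well above or below 5 CPM. That checks the code and does not test the choice of threshold or the differences between the libraries. Scaling alternatives used TMM factors of edgeR 4.0.16 and size factors of DESeq2 1.42.0. Promoter sequences were not used here, and some genes that the rule names are not reported here.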

Additional observations from a re-analysis of the deposited data

How the results depend on the processing

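No paired analysis was possible because a single group of 3 libraries was described and no test was made. The count of expressed genes, 6628, was 8318 at 1 CPM and 5761 at 10 CPM, and between 6356 and 6886 in the other alternatives outside those that leave out a library, including 6623 with TMM totals, 6624 with median-of-ratios size factors and 6851 at 5 TPM, which is scaled by exon length. An alternative added after the data were seen, without genes that share 50% or more of their exon bases, gave 6278. Leaving out each library in turn gave 6567 to 6664 expressed genes and 3526 to 4083 genes at 0. The protein-coding share of counts, 65.1%, was 70.2% with totals that exclude rRNA, and 62.7% to 66.9% with 1 library left out. The number of genes holding 50% of the protein-coding counts, 287, was 91.0 per kb of exon, as length no longer weighs, and 268 to 306 with 1 library left out. TMM and median-of-ratios scaling changed the expressed count of 0 of 50 lists; a threshold of 5 TPM changed 20, with neuron genes at 1, muscle genes at 2 and epidermis genes at 2. Without replicate 3, 5 lists changed, the P450 family to 17 and the odorant-binding proteins to 1. Depth limits only the lowest levels: 3 counts equal 0.0218 to 0.0232 CPM.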
